A study of Arabidopsis thaliana with 6 samples.

Results

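BBX7 to BBX13 are the 7 Arabidopsis thaliana genes of B-box group II, the CONSTANS-like transcription factor genes whose proteins carry a pair of B-box zinc fingers and a CCT domain. They were taken by gene identifier, in numerical order, as AT3G07650, AT5G48250, AT4G15250, AT3G21880, AT2G47890, AT2G33500 and AT1G28050. They are 7 of the 36917 genes in the table and 7 of the 32 B-box genes. The series compared gene expression in bbx14-1 seedlings, a line named for a lesion in another B-box gene, BBX14, with that in wild type. The 6 libraries were 3 of genotype bbx14-1 and 3 of wild type (accession Col-0). All 6 came from seedlings on day 4, after 3 days of cold stratification, a 2 h pulse of white light at 100 µmol photons per square metre and second, 3 days of darkness and 1 day of light. They stand for a single time point after the move to light. Neither the nature of the bbx14-1 lesion nor the time of day of the harvest is stated in the labels. Nor do they say that samples of a group were grown apart, so the p-values rest on a spread between samples that may be technical in part.

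B-box proteins bind other proteins, and in some cases DNA, through their zinc fingers. The CCT domain, named after CONSTANS, CONSTANS-like and TOC1, serves in nuclear import and in binding partners and DNA. In seedlings many B-box proteins act in the pathway by which light stops the ubiquitin ligase COP1 from removing the transcription factor HY5, which drives greening. BBX7, also called COL9, delays flowering by lowering the mRNA of CONSTANS and FT. BBX7 and BBX8 (COL10) also act below the blue-light receptor CRY2, COP1 and HY5 in cold acclimation. BBX10 (COL12) is a COP1 target that represses flowering, and BBX11 (COL13) promotes seedling responses to light.

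The coding sequences of the 7 genes form 3 close pairs, with BBX11 on its own. Identity was taken from RefSeq's models for TAIR10.1 over the aligned bases of the coding sequences, gaps left out. It was 77.3% for BBX7 and BBX8, 75.5% for BBX12 and BBX13, and 71.9% for BBX9 and BBX10. The other 18 of 21 pairs lay between 53.4% and 58.7%. The stretch of 102 bases that encodes the core of the CCT domain is printed for all 7, since its letters show the pairs. It is given on the coding strand, 5′ to 3′. CONSTANS carries a CCT domain too, so the domain is not particular to the group. Capitals mark the 43 bases that are identical in all 7.
BBX7: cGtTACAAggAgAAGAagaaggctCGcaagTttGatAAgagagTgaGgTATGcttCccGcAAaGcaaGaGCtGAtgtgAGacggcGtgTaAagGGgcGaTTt
BBX8: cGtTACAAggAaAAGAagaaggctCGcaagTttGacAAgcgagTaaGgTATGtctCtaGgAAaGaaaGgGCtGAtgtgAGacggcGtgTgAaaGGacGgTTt
BBX9: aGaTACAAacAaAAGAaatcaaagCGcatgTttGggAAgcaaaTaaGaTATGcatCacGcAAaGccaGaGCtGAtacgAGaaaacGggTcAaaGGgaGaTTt
BBX10: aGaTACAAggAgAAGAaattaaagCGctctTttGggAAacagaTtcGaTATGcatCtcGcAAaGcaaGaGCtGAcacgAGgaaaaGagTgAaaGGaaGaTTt
BBX11: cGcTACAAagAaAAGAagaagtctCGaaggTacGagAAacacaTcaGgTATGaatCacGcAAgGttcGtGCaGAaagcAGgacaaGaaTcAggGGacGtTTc
BBX12: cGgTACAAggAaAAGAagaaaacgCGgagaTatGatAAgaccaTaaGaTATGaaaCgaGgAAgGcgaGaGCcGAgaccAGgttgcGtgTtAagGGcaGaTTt
BBX13: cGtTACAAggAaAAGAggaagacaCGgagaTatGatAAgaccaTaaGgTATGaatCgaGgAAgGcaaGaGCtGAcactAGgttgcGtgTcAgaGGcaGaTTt
In that stretch BBX7 and BBX8 shared 87 of 102 bases, BBX12 and BBX13 shared 89, BBX9 and BBX10 shared 83, and the other 18 pairs shared 61 to 72. No 50-base window of the exons of any member had an exact match elsewhere in the genome.

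BBX14 itself, the gene named in the labels, was checked before the members. BBX14 had 649.2, 760.9 and 892.3 normalized counts in the libraries labelled bbx14-1, against 539.9, 683.3 and 517.4 in wild type. The groups overlapped and the mRNA was not lower in the labelled mutant (log2 fold change 0.40, SE 0.13, limma adjusted p = 0.0726). Reads were counted over all exons, so an altered transcript would be counted with an intact one. For this reason the group goes by the name the libraries labelled bbx14-1, and directions are given with reference to that name.

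BBX7 and BBX8, a close pair, were lower in the libraries labelled bbx14-1, at 41.2% and 33.1% of their wild-type means. They were the members that passed the test, 2 of the 5 tested, and no member passed in the other direction. BBX11 was lower in every labelled library than in any wild-type library but did not pass. BBX12 and BBX13 overlapped between the groups, BBX10 was too low to test, and BBX9 was at 0 in all 6 libraries. Among all 19003 tested genes 2.14% were called lower and 2.51% higher, 4.65% in all (limma on log2(normalized count + 1), Benjamini-Hochberg adjusted p under 0.05 over all tested genes). All 5 tested members had a negative fold change, as had 49.5% of all tested genes. Their median was -0.42 on the log2 scale, beside 0.0029 over all tested genes. The groups did not overlap for 3 of the 5, all lower, where 10.6% of all tested genes were lower with no overlap and 10.4% higher with none. Fewer cells that express a gene and less mRNA per cell cannot be told apart in these whole-seedling libraries.

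**Figure D1:**
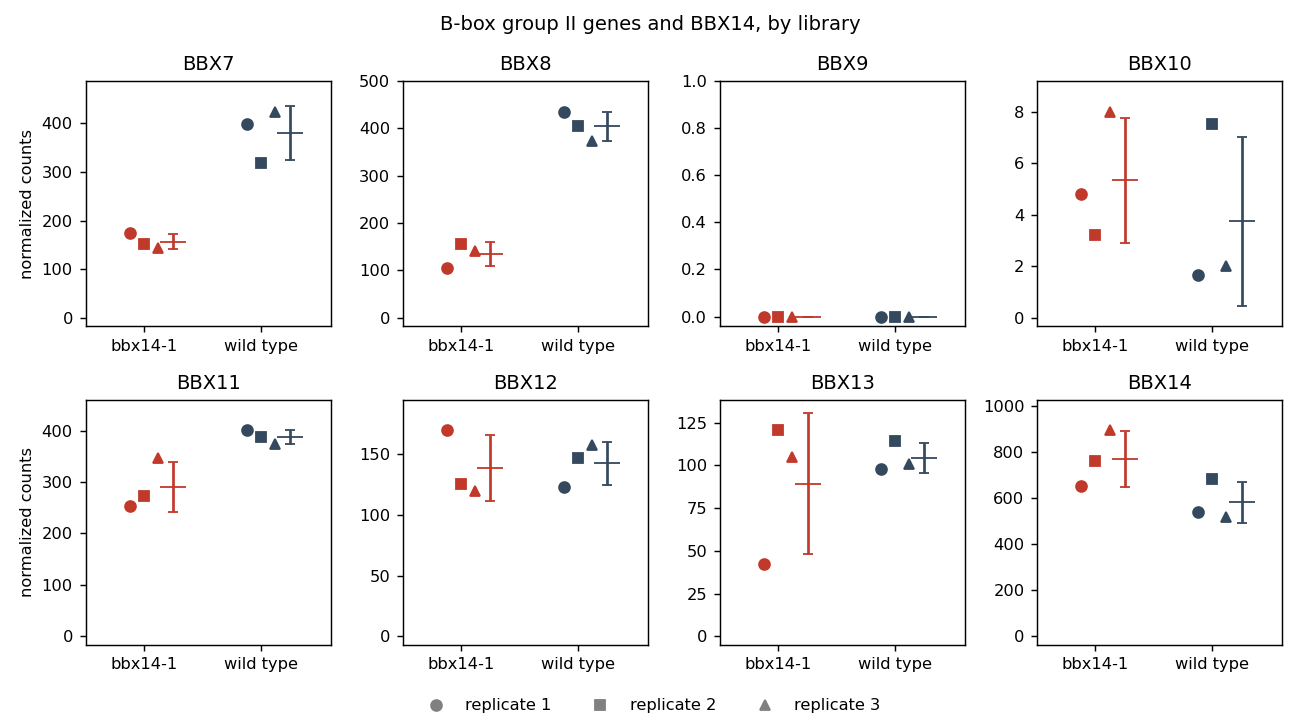
Normalized counts of BBX7 to BBX13, and of BBX14 in the last panel, in each of the 3 libraries labelled bbx14-1 (left in each panel) and the 3 wild-type libraries (right); symbols are replicates, horizontal bars are group means and error bars are 1 SD, on a separate axis for each gene. BBX7 and BBX8 separate the groups widely, with 143.1 to 173.5 and 105.5 to 154.8 normalized counts in the libraries labelled bbx14-1, whereas BBX12 and BBX13 overlap.

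BBX7 (AT3G07650, RefSeq symbol COL9), the repressor of flowering, lies on the plus strand of chromosome 3 from 2441565 to 2444532 in TAIR10.1, in 5 exon blocks. It had 173.5, 152.6 and 143.1 normalized counts in the libraries labelled bbx14-1, against 397.8, 317.8 and 423.6 in wild type. The highest labelled library lay well below the lowest wild-type library. The means were 156 ± 15.6 and 380 ± 55.2 (SD, n = 3 each), giving a log2 fold change of -1.27 (SE 0.15) and a 95% confidence interval of -1.59 to -0.95 (limma adjusted p = 9.60e-06). Without the dependence of the variance on the mean level the fold change was the same but the call was lost (limma adjusted p = 0.0629), a setting under which 28 genes were called in all. Behind the values stood 217, 142 and 143 reads in the libraries labelled bbx14-1, against 473, 253 and 420 reads in wild type. The coefficient of variation between libraries was 9.96% in the labelled group, where counting alone gives 7.73%, and 14.5% in wild type, where counting gives 5.12%.

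BBX8 (AT5G48250), the partner of BBX7 in cold acclimation, lies on the minus strand of chromosome 5 from 19561319 to 19563832, also in 5 exon blocks. It had 105.5, 154.8 and 141.1 normalized counts in the libraries labelled bbx14-1, against 434.8, 405.7 and 373.2 in wild type. No labelled library came near the wild-type range, and replicate 1 was the lowest of the labelled libraries, whereas for BBX7 it was the highest. The means were 134 ± 25.4 and 405 ± 30.8 (SD, n = 3 each), giving a log2 fold change of -1.60 (SE 0.16) and a 95% confidence interval of -1.94 to -1.27 (limma adjusted p = 5.27e-07). Among the 19003 tested genes, 49 had a lower fold change than BBX8 and 118 a lower one than BBX7. A total of 71 genes, 0.374% of those tested, were called lower by at least 2-fold, BBX7 and BBX8 among them. The end of BBX8 overlaps AT5G48240 on the opposite strand by 56 bases. AT5G48240 had 143.9, 149.4 and 168.1 normalized counts in the libraries labelled bbx14-1, against 158.1, 174.6 and 184.6 in wild type, and did not pass (log2 fold change -0.16, limma adjusted p = 0.698).

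The fold changes of BBX7 and BBX8 were not shown to differ. The log2 ratio of BBX8 to BBX7 was -0.71, 0.02 and -0.02 in the libraries labelled bbx14-1, against 0.13, 0.35 and -0.18 in wild type. The ranges overlapped. The difference of the means was -0.34 (exact two-sided permutation test, p = 0.4, where 3 libraries against 3 cannot give less than 0.1).

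The stretches upstream of the annotated starts of BBX8 and BBX7 are printed because these are the members that passed the test. Each is 250 bases long, on the strand of its gene, 5′ to 3′, and ends at the base before the start. They come from RefSeq's TAIR10.1, chr5:19563833-19564082 (minus strand) for BBX8 and chr3:2441315-2441564 (plus strand) for BBX7. Capitals mark matches on either strand to AAATATCT, the evening element bound by MYB-like clock proteins such as CCA1 and LHY, or, where that is absent, to its last 7 letters, AATATCT.
BBX8: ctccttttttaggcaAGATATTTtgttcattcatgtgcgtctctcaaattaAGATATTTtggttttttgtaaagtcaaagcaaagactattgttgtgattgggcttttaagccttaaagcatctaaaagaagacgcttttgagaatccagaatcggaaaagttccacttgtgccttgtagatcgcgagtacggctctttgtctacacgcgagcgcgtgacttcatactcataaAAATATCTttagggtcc
BBX7: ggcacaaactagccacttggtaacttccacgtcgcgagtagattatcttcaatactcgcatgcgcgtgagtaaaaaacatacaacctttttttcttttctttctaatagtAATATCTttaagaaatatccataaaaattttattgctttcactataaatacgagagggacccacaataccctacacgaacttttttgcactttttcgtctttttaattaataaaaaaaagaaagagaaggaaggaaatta
BBX8 held 3 evening elements, at -235 to -228, -199 to -192 and -17 to -10 counted from the start, the first 2 of them on the other strand. Of the 36630 genes with such a window 4.4% held at least 1 evening element, 0.207% at least 2 and 0.0137%, or 5 genes, at least 3. BBX7 held none and had 1 match to the shortened form, at -140 to -134, as had 9.5% of all genes. The shortened form, which every evening element contains, was added after the windows had been read.

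Among the other members, BBX13 held 1 evening element, at -17 to -10, the same distance from the start as the nearest one of BBX8. BBX11 held 2 matches to the CCA1 binding site AAAAATCT, of which 6.2% of all genes had at least 1 upstream. The share of genes with at least 2 was not computed for this motif. BBX9 and BBX10 held 1 G-box, CACGTG, each, found upstream of 5.5%. BBX12 held none of these, only the core ACGT, which overlaps every G-box and which 41.9% of all genes had. All motifs were searched on both strands. These matches describe the letters in the windows and are not binding sites shown by the data.

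BBX11 (AT2G47890), the promoter of seedling responses to light, lies on the plus strand of chromosome 2 from 19607996 to 19610287, in 2 exon blocks. It had 252.7, 273.0 and 346.1 normalized counts in the libraries labelled bbx14-1, against 400.3, 386.9 and 373.2 in wild type. The groups did not overlap, and the labelled libraries were spread more widely than those of wild type. The means were 291 ± 49.2 and 387 ± 13.6 (SD, n = 3 each), giving a log2 fold change of -0.42 (SE 0.14) and a 95% confidence interval of -0.71 to -0.14. The difference did not pass (limma unadjusted p = 0.0052, adjusted p = 0.083). It did pass without bbx14-1 replicate 3, the highest labelled library, with a value of -0.56 on the log2 scale and a limma adjusted p of 0.0259. A long noncoding RNA, AT2G47895, overlaps BBX11 on the same strand by 327 bases and had at most 10.05 normalized counts in any library.

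BBX10 and BBX9, the pair low in these seedlings, could not be compared between the groups. BBX10 (AT3G21880), the COP1 target, lies on the plus strand of chromosome 3 from 7706257 to 7708346, in 6 exon blocks. It had 4.80, 3.22 and 8.0 normalized counts in the libraries labelled bbx14-1, from 6, 3 and 8 reads, against 1.68, 7.54 and 2.02 in wild type, from 2, 6 and 2 reads. The groups overlapped, and the mean was below the 10 normalized counts needed for a test. BBX9 (AT4G15250), on the minus strand of chromosome 4 from 8709767 to 8711526, had no read in any of the 6 libraries. A count of 0 allows up to 3 reads in a library, which are worth 2.40 to 3.77 normalized counts depending on the library, for counting error only.

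Both genes of this pair stand tail to tail with a gene for a single-B-box microProtein of group V. BBX30 ends 284 bases from the end of BBX9 and had 4.80, 34.39 and 14.01 normalized counts in the libraries labelled bbx14-1, against 16.82, 12.56 and 16.14 in wild type (log2 fold change -0.14, limma adjusted p = 0.942). BBX31 ends 486 bases from the end of BBX10 and had 62.36, 101.0 and 86.03 normalized counts in the libraries labelled bbx14-1, against 72.32, 77.88 and 74.63 in wild type (log2 fold change 0.12, limma adjusted p = 0.869). For both microProtein genes the wild-type libraries lay within the range of the labelled ones.

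BBX12 and BBX13, the remaining pair, did not pass the test. BBX12 (AT2G33500), on the minus strand of chromosome 2 from 14187914 to 14190278, had 169.5, 125.7 and 120.0 normalized counts in the libraries labelled bbx14-1, against 122.8, 147.0 and 157.3 in wild type. Replicate 1 was the highest of all 6 and the other labelled libraries were among the lowest, so the groups overlapped. The log2 fold change of BBX12 was -0.05 with a 95% confidence interval of -0.45 to 0.35 (limma adjusted p = 0.937), an interval that does not reach a 2-fold change in either direction. The end of BBX12 overlaps AT2G33490 on the opposite strand by 192 bases, and AT2G33490 did not pass either (log2 fold change -0.01, limma adjusted p = 0.983).

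BBX13 (AT1G28050), on the minus strand of chromosome 1 from 9775522 to 9778043, had 42.4, 120.4 and 105.0 normalized counts in the libraries labelled bbx14-1, against 97.6, 114.3 and 100.9 in wild type. bbx14-1 replicate 1 was the lowest of the 6, and the other labelled libraries lay within or above the wild-type range. The log2 fold change was -0.35 with a 95% confidence interval of -0.94 to 0.24 (limma adjusted p = 0.604), and without bbx14-1 replicate 1 it was 0.11. That low value rests on 53 reads, where the other labelled libraries had 112 and 105 reads. The coefficient of variation of BBX13 was 46.3% in the labelled group, where counting alone gives 10.5%, and 8.51% in wild type, where counting gives 9.89%.

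The order of the members by level differed between the groups. Levels were set side by side per kilobase of exon, as normalized counts per kb. In the libraries labelled bbx14-1 BBX11 stood first, at a mean of 131 per kb, and its libraries, from 114 to 156, did not overlap those of the next member. BBX12 at 82.1, BBX7 at 76.0, BBX8 at 73.8 and BBX13 at 46.2 per kb followed, and each of these overlapped its neighbour. BBX10 came after at 3.35 per kb and BBX9 was at 0. In wild type BBX8 stood first at 223 per kb, with BBX7 at 185 and BBX11 at 175, and each of these overlapped its neighbour. BBX12 at 84.4, BBX13 at 53.9 and BBX10 at 2.35 per kb followed without overlap, and BBX9 was at 0.

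Against other genes the group was moderately to weakly expressed. The wild-type median of 18332 tested protein-coding genes was 106 per kb, so BBX8, BBX7 and BBX11 were above it, at the percentiles 72.6, 67.2 and 65.5. BBX12 and BBX13 were below it, at 43.5 and 31.8. Among the 32 B-box genes in wild type, BBX8 ranked 11, BBX7 13 and BBX11 14. The most abundant B-box mRNA was that of BBX6, another CONSTANS-like gene, at 4294 per kb.

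**Figure D2:**
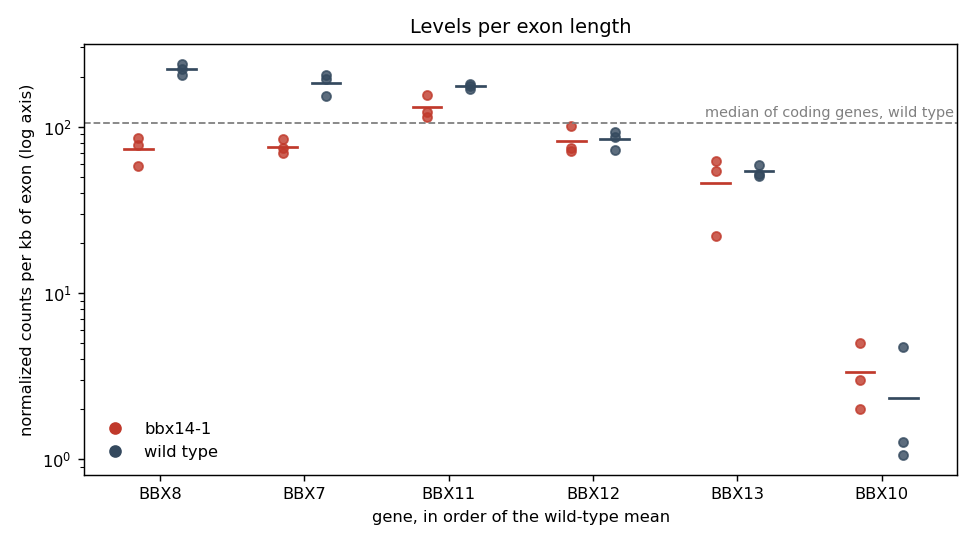
Normalized counts per kb of exon on a log axis, in the 3 libraries labelled bbx14-1 (left for each gene) and the 3 wild-type libraries (right); points are libraries, bars are means and the dashed line is the wild-type median of coding genes. BBX9, at 0, is not drawn. In wild type BBX8, BBX7 and BBX11 lie at 154 to 240 per kb, and in the libraries labelled bbx14-1 BBX7 and BBX8 lie at 58.2 to 85.3 per kb, beside BBX12.

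Summed per kb over its members, the group gave 413 ± 27.2 in the libraries labelled bbx14-1 and 723 ± 17.5 in wild type (SD, n = 3 each). BBX7 and BBX8 together gave 150 ± 8.75 in the labelled libraries and 408 ± 27.7 in wild type, and the other 5 members gave 263 ± 23.7 in the labelled libraries and 315 ± 10.3 in wild type. The share of the group's summed level held by BBX7 and BBX8 was 36.4% ± 2.12 in the labelled libraries and 56.3% ± 2.48 in wild type. BBX11 held 31.7% ± 3.74 in the labelled libraries and 24.2% ± 0.866 in wild type. Of the level summed over all 32 B-box genes, the group held 2.76% ± 0.118 in the labelled libraries and 4.62% ± 0.297 in wild type. These sums restate the member values on a common scale and were not tested.

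The other B-box genes gave no lower call. Of the 24 genes of groups I, III, IV and V other than BBX14, 21 were tested. Of these 2 were called higher and 0 lower (limma adjusted p under 0.05), and their median log2 fold change was -0.11. Among all tested genes 2.51% were called higher and 2.14% lower. At an unadjusted limma p under 0.05, 2 were higher and 2 lower, and limma's voom on the recovered reads called 1 higher and 0 lower. Group I, which holds CONSTANS and its nearest relatives, had 5 tested genes with a median of 0.04, and group IV, which holds BBX24 and BBX25, had 7 with a median of -0.17. No gene of either passed in limma or in voom, with 0 of group I and 2 of group IV, BBX18 and BBX20, both lower, at an unadjusted limma p under 0.05.

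The genes called higher were BBX27 and BBX16. BBX27, of group V, had 800.3, 764.1 and 734.3 normalized counts in the libraries labelled bbx14-1, against 525.6, 506.2 and 513.4 in wild type, with no overlap (log2 fold change 0.57, limma adjusted p = 0.00146). BBX16, of group III with BBX14, had 94.35, 180.6 and 180.1 normalized counts in the libraries labelled bbx14-1, against 72.32, 95.46 and 78.67 in wild type (log2 fold change 0.83, limma adjusted p = 0.0467). The lowest labelled library of BBX16 lay inside the wild-type range, and its call was lost in 8 of 15 alternative settings. The identifier of BBX27, AT1G68190, is near that of BBX14, AT1G68520, on chromosome 1. A part of variants linked to the lesion in the values of BBX27 was not tested.

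**Figure D3:**
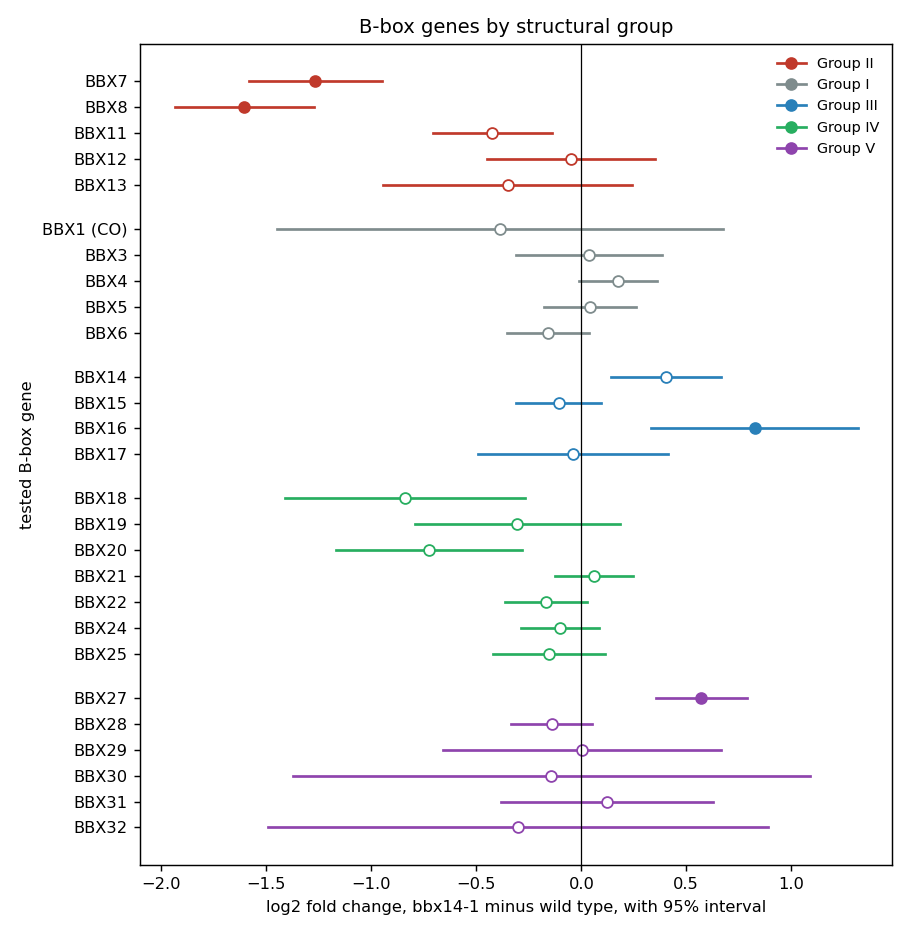
Log2 fold change, libraries labelled bbx14-1 minus wild type, of every tested B-box gene by structural group, with 95% confidence intervals from limma; filled points were called and open ones were not. By point estimate BBX8 at -1.60 and BBX7 at -1.27 lie below the other B-box genes, and BBX27 at 0.57 and BBX16 at 0.83 are the genes called higher.

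The genes most like BBX7 and BBX8 in pattern were found among 15036 genes whose mean reached 50 normalized counts. Likeness was the root mean square difference, over the 6 libraries, between log2 values centred on the wild-type mean. For BBX7 the nearest genes were AT4G33985 at 0.143, NIP2, a RING finger gene, at 0.144 and TOC1, a core clock repressor with a CCT domain of its own, at 0.188. AT4G33985 rested on 46, 26 and 28 reads in the libraries labelled bbx14-1, against 82, 60 and 82 in wild type. It was called (log2 fold change -1.27, limma adjusted p = 0.00994) but lost the call in 2 settings. TOC1 had 992.2, 925.3 and 1028 normalized counts in the libraries labelled bbx14-1, against 2208, 2017 and 2083 in wild type (log2 fold change -1.10, limma adjusted p = 3.60e-08). NIP2 had 159.9, 156.9 and 155.1 in the libraries labelled bbx14-1, against 365.0, 374.3 and 380.2 in wild type (log2 fold change -1.24, limma adjusted p = 3.97e-06). In TOC1 and NIP2 the replicates of a group lay close together and the groups lay far apart.

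For BBX8 the nearest genes were PRR5, a clock repressor of the same family as TOC1, at 0.141, AT4G11900 at 0.150 and RD29A, a gene induced by cold and drought, at 0.152. AT4G11900 rested on 40, 48 and 42 reads in the libraries labelled bbx14-1, against 134, 88 and 114 in wild type. PRR5 had 1091, 1465 and 1290 normalized counts in the libraries labelled bbx14-1, against 4460, 3623 and 4376 in wild type (log2 fold change -1.70, limma adjusted p = 1.87e-10). RD29A had 393.4, 612.6 and 474.2 in the libraries labelled bbx14-1, against 1360, 1259 and 1323 in wild type (log2 fold change -1.43, limma adjusted p = 7.65e-08). As in BBX8, replicate 1 was the lowest labelled library of each. These genes were chosen by likeness over the same libraries, so a shared low replicate follows in part from the choice. BBX7 and BBX8 were not each other's nearest: BBX8 came 64th for BBX7 and BBX7 came 14th for BBX8, both at 0.370. The likeness was computed over the same 6 libraries that gave the fold changes, and it describes these libraries.

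**Figure D4:**
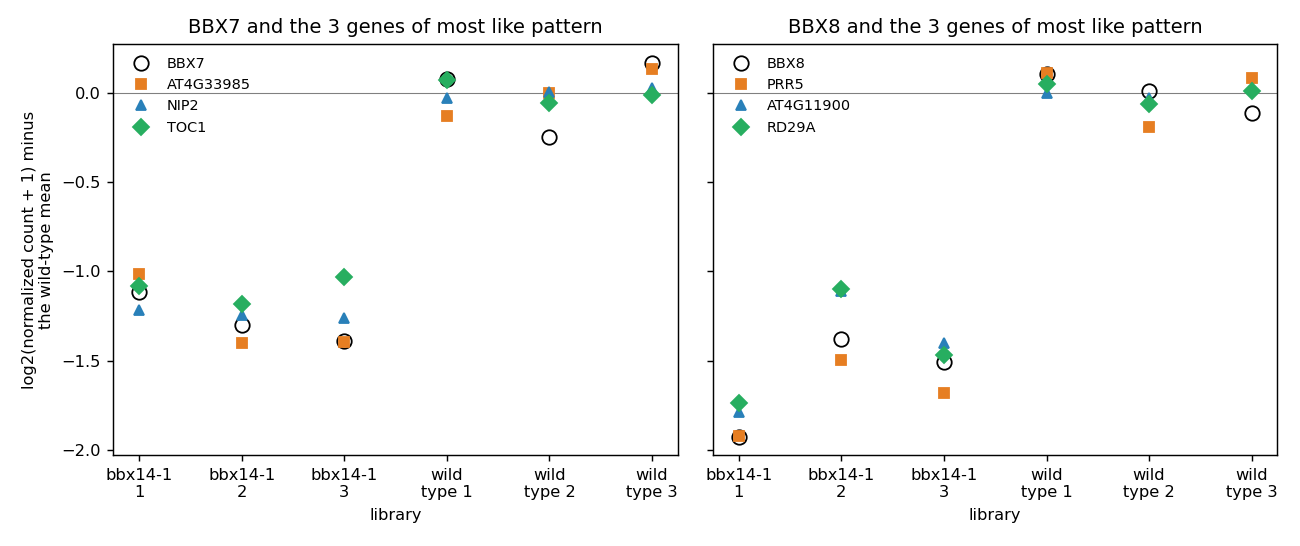
Log2(normalized count + 1) minus the wild-type mean, in each of the 3 libraries labelled bbx14-1 and the 3 wild-type libraries, for BBX7 and BBX8 with the 3 genes of most like pattern each. Each symbol is a gene in 1 library, and BBX8, PRR5, AT4G11900 and RD29A are lowest in replicate 1 of the libraries labelled bbx14-1. The genes were chosen by likeness over these same libraries.

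Genes placed with BBX7 and BBX8 in blue-light cold acclimation were partly lower. Of 12 tested genes 4 were called lower and 0 higher, 11 had a negative fold change, and the median was -0.52, beside 0.0029 for all genes. Among all tested genes 2.14% were called lower and 2.51% higher, and 49.5% had a negative fold change. This list and those below were chosen with earlier results of these data known, so their counts describe chosen sets. KIN2, a cold-regulated gene, had 215.9, 176.3 and 180.1 normalized counts in the libraries labelled bbx14-1, against 366.7, 330.3 and 538.6 in wild type (log2 fold change -1.08, limma adjusted p = 0.000187). CBF3, a transcription factor of the cold response, had 83.95, 94.57 and 64.02 in the libraries labelled bbx14-1, against 139.6, 115.6 and 183.6 in wild type (log2 fold change -0.84, limma adjusted p = 0.0284). Neither gene overlapped between the groups. RD29A, given above, was the third gene called, and COR15B was the fourth, with 2 reads in each labelled library, against 29.43, 16.33 and 42.36 normalized counts in wild type (limma adjusted p = 0.00409).

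The regulators above BBX7 and BBX8 in that module did not pass. On the log2 scale HY5 differed by -0.51 (limma adjusted p = 0.397), CRY2 by -0.25 (limma adjusted p = 0.0953) and COP1 by -0.22 (limma adjusted p = 0.319). CRY2 was lower with no overlap between the groups, as were 10.6% of all tested genes. The 95% confidence interval of HY5, -1.11 to 0.09, reached a 2-fold lower level. CBF2, a relative of CBF3, had 299.8, 485.8 and 474.2 normalized counts in the libraries labelled bbx14-1, against 400.3, 329.1 and 306.6 in wild type. Its log2 fold change of 0.26 did not pass (limma adjusted p = 0.453), and the groups overlapped. CBF2 was the only tested gene of the cold acclimation list with a positive fold change. CBF1, another relative, differed by -0.53 with overlapping groups and did not pass (limma unadjusted p = 0.0283, adjusted p = 0.222). In a list of 11 light signalling genes, which holds CRY2, COP1 and HY5 as well, 0 were called in limma or in voom, 3 were lower at an unadjusted limma p under 0.05, CRY2 among them, and the median was -0.20. The most abundant of these were the photoreceptor genes CRY1, at 0.12 on the log2 scale (limma adjusted p = 0.550), and PHYA, at 0.08 (limma adjusted p = 0.714).

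Of 10 tested genes of photoperiodic flowering, the process BBX7 and BBX10 are known for, 3 were called lower and 0 higher, with a median of -0.20. The shares over all tested genes were 2.14% lower and 2.51% higher. FKF1, a blue-light receptor that lets CONSTANS mRNA rise, had 227.9, 212.8 and 230.1 normalized counts in the libraries labelled bbx14-1, against 1006, 922.0 and 920.8 in wild type (log2 fold change -2.08, limma adjusted p = 2.28e-11). GI, the partner of FKF1, had 2732, 2905 and 2930 in the libraries labelled bbx14-1, against 4435, 4279 and 4077 in wild type (log2 fold change -0.58, limma adjusted p = 0.000101). In both the groups were far apart relative to their spread. FKF1 (AT1G68050) and BBX14 (AT1G68520) have near identifiers on chromosome 1. A part of variants linked to the lesion in the values of FKF1 was not tested. SOC1, a promoter of flowering, was the third gene called (log2 fold change -0.62, limma adjusted p = 0.018).

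CONSTANS and FT, the genes that BBX7 is known to lower in flowering plants, gave no called difference to set beside that of BBX7. CONSTANS had 23.19, 8.60 and 13.01 normalized counts in the libraries labelled bbx14-1, against 18.50, 13.82 and 24.21 in wild type, with overlapping groups (log2 fold change -0.39, limma adjusted p = 0.781). FT had no read in any of the 6 libraries.

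The clock list, which holds TOC1 and PRR5 and shares GI and ZTL with the flowering list, had 20 tested genes. Of these 8 were called lower and 2 higher, with a median of -0.33, beside 2.14% lower and 2.51% higher among all tested genes. COR27, a repressor of clock genes, had 45.57, 38.69 and 36.01 normalized counts in the libraries labelled bbx14-1, against 338.9, 208.5 and 279.4 in wild type (log2 fold change -2.73, limma adjusted p = 2.29e-08). COR28, its close relative, had 67.16, 91.35 and 77.03 in the libraries labelled bbx14-1, against 352.4, 273.8 and 272.3 in wild type (log2 fold change -1.92, limma adjusted p = 3.23e-07). The wild-type libraries of both genes lay far above the labelled ones. LHY, a MYB-like protein that binds evening elements, had 161.5, 279.4 and 214.1 in the libraries labelled bbx14-1, against 74.01, 108.0 and 113.0 in wild type, and was called higher (log2 fold change 1.13, limma adjusted p = 0.00179). CCA1, its relative, had 550.1, 616.9 and 590.2 in the libraries labelled bbx14-1, against 439.0, 489.9 and 449.8 in wild type, and did not pass although the groups did not overlap (log2 fold change 0.35, limma adjusted p = 0.0806). CHE was the other gene of the list called higher (log2 fold change 0.41, limma adjusted p = 0.0359). BBX7 and BBX8 shared their direction with PRR5, TOC1, COR27 and COR28, and LHY and CHE had the opposite one. Whether LHY acts on BBX7 or BBX8 was not tested.

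The protochlorophyllide reductases, enzymes of the chlorophyll pathway to which BBX11 is linked, were called higher, 3 of 3, at a median of 0.51. Among all tested genes 2.51% were called higher. PORA had 41.58, 40.84 and 56.02 normalized counts in the libraries labelled bbx14-1, against 11.77, 17.58 and 14.12 in wild type (log2 fold change 1.61, limma adjusted p = 0.0156). PORB had 5313, 4772 and 5886 in the libraries labelled bbx14-1, against 3746, 3796 and 3907 in wild type (log2 fold change 0.48, limma adjusted p = 0.00176). For PORC the log2 fold change was 0.51 (limma adjusted p = 0.00345). None of the 3 overlapped between the groups, where 10.4% of all tested genes were higher with no overlap. BBX11 did not pass, and a link between its level and those of the reductases was not tested.

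Recovered depth was 25505859 to 32621183 reads in the libraries labelled bbx14-1 and 20939505 to 32064650 in wild type, of which plastid genes took 49.61% to 56.67%. Markers of green shoot (3 genes), phloem and xylem (3) and the stomatal lineage (2) gave 0 calls in limma and in voom, and 0 at an unadjusted limma p under 0.05. All 4 root markers had a positive fold change. Of these 1 was called in limma, 2 in voom and 3 were at an unadjusted limma p under 0.05, all higher. Their summed level was 32457 to 40162 normalized counts in the libraries labelled bbx14-1 and 26230 to 29313 in wild type. Almost all of that sum was PYK10, at means of 34782 in the labelled libraries and 27691 in wild type. PYK10 did not pass (log2 fold change 0.32, limma adjusted p = 0.0893). Nor did COBL9 (1.59, limma adjusted p = 0.0669) or CASP1 (0.08, limma adjusted p = 0.838), and CASP1 had means of 364 in the labelled libraries and 346 in wild type. The called marker, IRT1, an iron transporter of the root epidermis, had 38, 42 and 12 reads in the libraries labelled bbx14-1 and none in wild type (limma adjusted p = 0.00199). The seed storage marker CRC had 23.99, 19.34 and 22.01 in the libraries labelled bbx14-1, against 275.8, 70.34 and 58.50 in wild type (log2 fold change -2.22, limma adjusted p = 0.00146), and the other seed marker, SESA1, had reads only in wild type replicate 1. The part of root or seed tissue in the values of BBX7 and BBX8 was not tested. Without wild type replicate 1 the log2 fold change was -1.52 for CRC (limma adjusted p = 0.0365), -1.23 for BBX7 and -1.55 for BBX8, all called, so the difference in CRC is smaller but present in that comparison too.

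**Figure D5:**
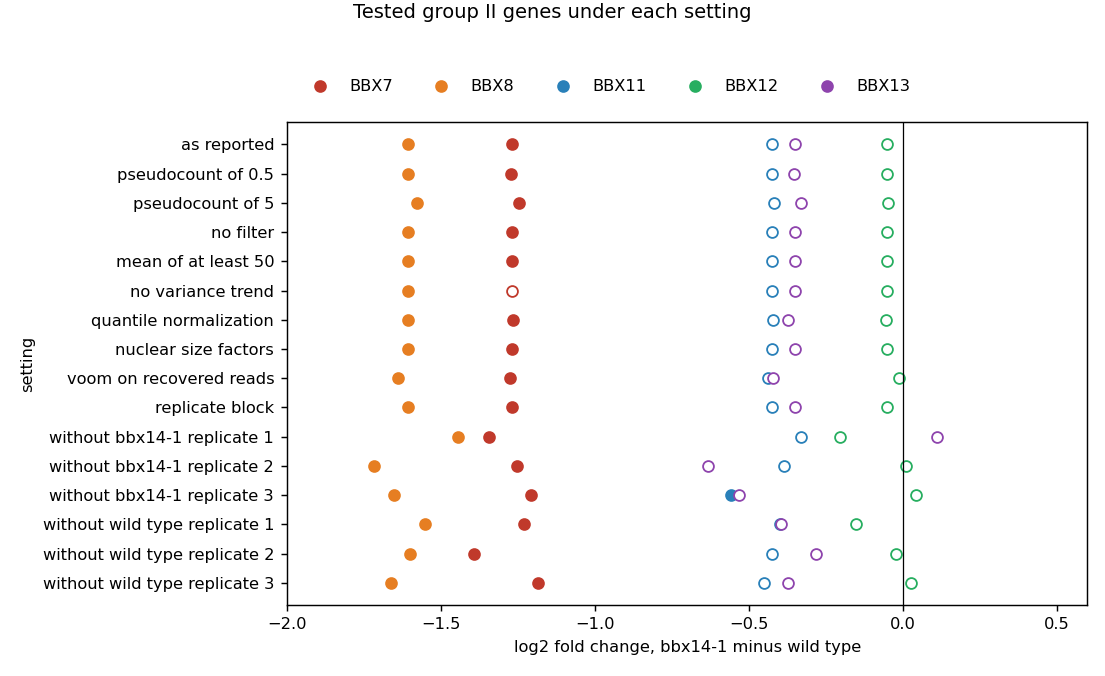
Log2 fold change, libraries labelled bbx14-1 minus wild type, of the 5 tested members under the main settings and 15 alternatives; each line is a setting, and filled points were called while open ones were not. BBX8 stays between -1.72 and -1.44 and BBX7 between -1.39 and -1.18, whereas BBX12 and BBX13 reach both sides of 0.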

How the data were processed

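RNA of 6 seedling samples, 3 labelled bbx14-1 and 3 wild type, was sequenced after removal of ribosomal RNA, in strand-specific libraries made with dUTP and random primers, per the labels' protocols. Per the submitters' processing notes the tools were Trimmomatic, TopHat2 2.1.1, FastQC, DESeq2 and featureCounts, with genome build TAIR10. The sources used here do not say whether the counting used strand. The deposited values are DESeq2 normalized counts, per the file headers and name: read counts per gene, divided by the authors by the size factor of their library. Decimals are written with a comma, which was read as a point. All values above 0 were whole multiples of what 1 read is worth in their library, within a tolerance of 0.01 (100% of values), so reads per gene could be recovered. Totals were 20939505 to 32621183 reads per library. Intervals and floors based on reads cover counting error only.

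The 19003 of 36917 genes whose mean reached 10 normalized counts were transformed to log2(normalized count + 1) and tested with limma 3.58.1 (R 4.3.3), with a variance trend on the mean level. The two-sided p-values were adjusted after Benjamini and Hochberg over these genes. Fold changes are bbx14-1 minus wild type on that scale, which understates changes of low genes. The fit was tested on simulated data. Samples were grouped by the genotype in the labels. Deviations of same-numbered samples from their group means correlated at -0.03 to 0.042, and those of different-numbered samples at -0.091 to 0.067. No pairing by number was visible, but with 3 samples per group this cannot exclude that same-numbered samples were handled together. Replicates differed by more than sampling noise (chi-square per degree of freedom 8.08 or more).

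Symbols and positions came from RefSeq's TAIR10.1, to which 36632 identifiers matched. It was used for exon lengths, sequences and overlaps. The members and gene lists were chosen with earlier results of these data known, so their calls are descriptions of a chosen set. Named genes were all members, BBX14, up to 4 called genes per list or else the 2 most abundant, the genes of most like pattern and the neighbours. The genes that overlap members, BBX18, BBX20, LHY, CCA1, CHE, CBF1, CBF2, HY5, CRY2, COP1, CONSTANS, FT, ZTL, PYK10, COBL9, CASP1 and SESA1 were named outside this rule. They were named for their roles or values, after their values were seen. The alternatives were other pseudocounts (0.5 and 5), filters (none, or a mean of 50), normalizations, limma without the variance trend, voom on recovered reads, a replicate block, and each library left out.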

Additional observations from a re-analysis of the deposited data

How the results depend on the processing

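Of 15 alternatives, BBX8 passed in all (limma adjusted p at most 0.0413) and BBX7 in all but the fit without the variance trend (-1.27, limma adjusted p = 0.0629), where 28 genes were called, 13 higher and 15 lower. Leaving out each library in turn gave -1.39 to -1.18 for BBX7, -1.72 to -1.44 for BBX8, -0.56 to -0.33 for BBX11, -0.20 to 0.044 for BBX12, -0.63 to 0.11 for BBX13, 0.29 to 0.53 for BBX14 and -0.48 to -0.10 for the log2 ratio of BBX8 to BBX7. BBX14 passed without bbx14-1 replicate 1 (0.52, limma adjusted p = 0.0306) and also without replicate 2 of wild type (0.53, limma adjusted p = 0.0199). BBX12 was positive without bbx14-1 replicate 2, bbx14-1 replicate 3 or wild type replicate 3. The same fits called 529 to 762 genes, 282 to 437 higher and 247 to 406 lower, the lowest being 529 in the absence of replicate 1 of wild type, ahead of 577 in the absence of its replicate 3, and changed sign in genes that were never called: -0.043 to 0.16 for BBX5 (group I), -0.18 to 0.054 for CAB1 (green shoot marker), -0.01 to 0.17 for SUC2 (phloem marker), -0.17 to 0.19 for CESA7 (xylem marker), -0.78 to 0.52 for BBX30 and -0.032 to 0.31 for BBX31. CESA7 was also negative after quantile normalization (-0.01) and in voom (-0.039). With the replicate number as a block, BBX7 (-1.27, limma adjusted p = 6.73e-06) and BBX8 stayed called, as were 915 genes in all. The cause of these shifts was not tested, except that leaving out libraries gives fewer samples. Of the 23 genes named by rule that were called, BBX7 and BBX8 included, 15 lost the call in some setting, 14 of them without the variance trend. CBF3 lost it in 5 settings, SOC1 in 4 and PORA in 3. Depth limits BBX9, with no read, BBX10, with 2 to 8 reads in a library, and low genes such as COR15B.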
